A study of Mus musculus with 8 samples.

Results

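The small leucine-rich proteoglycans described here are the products of 7 genes, Dcn (decorin), Lum (lumican), Bgn (biglycan), Fmod (fibromodulin), Ogn (osteoglycin), Prelp and Aspn (asporin), of 31053 genes counted. They were followed in fibro/adipogenic progenitors (FAPs), stromal cells of muscle that carry the surface receptor PDGFRα, sorted from hindlimb muscles of female mice aged 8 months. The wild type animals were C57BL/6 and the others carried a knockout of dysferlin, a membrane repair protein of muscle whose loss causes a muscular dystrophy. The knockout strain is written BLA/J in the sample labels and B6A/J in the protocol, and the control strain is not described as littermates, so strain background, genotype and library preparation cannot be told apart. Each group has 4 labelled samples, but its cells came as 1 pooled matrix with nothing that maps a cell to a sample. Each group was therefore 1 library, and no replicate check, test or p-value between the groups was possible. All 95% intervals and limits below cover counting error only.

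Members were found by gene symbol, and cells were barcodes with at least 500 genes, at most 10% mitochondrial UMIs and at least 1 UMI of Pdgfra, the gene of the sorted surface protein. A unique molecular identifier (UMI) marks 1 captured RNA molecule. Of 3797 barcodes 2968 were kept, 1533 of wild type and 1435 of knockout. The kept cells held 14420247 and 19170199 UMIs, with a median of 9177 and 12717 per cell. The 2 matrices shared 13 barcodes, of which 2 were among the kept cells of both. Dysf itself had 9 UMIs in wild type and 14 in knockout cells, too few to check the labels, and the labels do not say where in the gene the lesion lies. The sorted identity could be read from markers that the selection did not use: Ly6a had 1399 CPM in wild type and 1818 CPM in knockout (CPM is the number of UMIs in every 1000000), Cd34 901 and 657 CPM, and Pi16 771 and 586 CPM. All 10 markers on the FAP list were detected in both libraries. That list includes Pdgfra, which the selection required, and the members Dcn and Lum. Markers of other cell types had summed levels of 6.24 CPM in wild type and 70.4 CPM in knockout for 8 macrophage markers, 27.3 and 24.8 CPM for 11 endothelial markers and 34.5 and 13.8 CPM for 5 adipocyte markers. The adipocyte sum was nearly all Fabp4, with 497 and 263 UMIs, while Adipoq, Cidec and Lep were at 0 in both. Tenocyte markers summed to 599 and 964 CPM, nearly all of it Thbs4 at 569 and 942 CPM, while the tendon regulator Scx had 9 and 26 UMIs.

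Small leucine-rich proteoglycans are secreted proteins built around a curved stack of leucine-rich repeats, which binds collagen fibrils and helps to set their diameter and spacing. Class I holds decorin and biglycan, which carry chondroitin or dermatan sulfate chains, and asporin, which has an aspartate-rich end in place of such chains. Class II holds lumican, fibromodulin and Prelp, of which the former pair carry keratan sulfate, and class III holds osteoglycin. Decorin and biglycan also bind growth factors of the TGF-β family, and biglycan binds proteins of the dystrophin-associated complex at the muscle fibre membrane. In muscle these genes are mainly products of fibroblast-like cells, and Dcn and Lum are in common use as FAP markers.

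Several members sit beside each other in the mouse genome (GRCm38, the build named in the submitters' notes as mm10). Dcn at chr10:97479609-97518143 and Lum at chr10:97565128-97572703 lie on the same strand, 46.984 kb apart, with no protein-coding gene between them. Aspn at chr13:49544443-49567565 and Ogn at chr13:49608046-49624501 are 40.48 kb apart, with Omd between them. Prelp at chr1:133910304-133921414 and Fmod at chr1:134037254-134048277 are on opposite strands, 115.839 kb apart. Bgn stands alone at chrX:73483602-73495933. Cenpp overlaps Aspn and Ogn on the opposite strand with 15 and 64 UMIs, and the antisense gene Gm15851 overlaps Prelp with 8 and 5 UMIs, a small number beside the members' own counts.

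The RefSeq promoter table (GRCm38.p6) held an entry for 5 of the 7 members. The 250 bases upstream of the start are printed for 3 genes: Bgn and Aspn, the pair with the highest correlation within clusters of wild type cells, and Ogn, the neighbour of Aspn. Capitals mark every match, on either strand, to TATAAA (the TATA box), GGGCGG (the GC box) and CANNTG (the E-box); matches of 1 motif may overlap each other.

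Bgn (chrX:73483351-73483600, plus strand): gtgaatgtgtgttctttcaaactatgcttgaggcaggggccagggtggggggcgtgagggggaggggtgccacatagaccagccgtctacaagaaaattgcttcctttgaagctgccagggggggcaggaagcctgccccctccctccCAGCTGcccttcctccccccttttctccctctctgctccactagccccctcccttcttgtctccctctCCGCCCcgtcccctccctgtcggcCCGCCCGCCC
Aspn (chr13:49544193-49544442, plus strand): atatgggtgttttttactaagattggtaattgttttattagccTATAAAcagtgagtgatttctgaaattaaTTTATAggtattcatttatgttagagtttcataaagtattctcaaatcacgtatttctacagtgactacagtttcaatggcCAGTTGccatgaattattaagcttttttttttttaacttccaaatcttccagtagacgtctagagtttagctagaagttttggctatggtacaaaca
Ogn (chr13:49607765-49608014, plus strand): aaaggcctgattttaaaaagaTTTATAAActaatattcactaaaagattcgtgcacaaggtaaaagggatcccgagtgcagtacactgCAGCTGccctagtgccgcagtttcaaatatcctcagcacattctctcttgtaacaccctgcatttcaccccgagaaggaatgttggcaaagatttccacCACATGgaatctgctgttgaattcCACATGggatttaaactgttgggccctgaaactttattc

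The Bgn window was 64.4% G or C and held 3 GC boxes, at 34, 10 and 6 bases before the start, the last 2 overlapping, and 1 E-box. The Aspn window was 30.0% G or C and held 2 TATA box matches, at 207 and 178 bases before the start, and 1 E-box. The Ogn window was 42.0% G or C, with 2 overlapping TATA box matches and 3 E-boxes. Over 32851 promoters of the same length, 32.7% held a GC box, 12.4% a TATA box match and 66.2% an E-box, and the median G or C content was 52.4%. These matches describe the letters only. Bgn and Aspn, which varied together within clusters, had windows with unlike base composition. Of the motifs marked here they shared only the E-box, which 66.2% of all promoters held, and other motifs were not compared.

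Decorin was by far the most abundant of the 7 messages. On the CPM scale of 3′ tag counts, which count 1 end per molecule and are not scaled by gene length, Dcn stood at 18914.2 CPM in wild type (95% interval 18843 to 18985) and 13854.9 CPM in knockout (13802 to 13908), and it ranked 4 among all genes in each library. Bgn at 1486 CPM and Lum at 1480 CPM came next in wild type, and their intervals overlapped. They were also level with each other in knockout, at 1985 and 1979 CPM. Ogn followed with 1351 and 1322 CPM, then Aspn with 408 and 381 CPM, and Prelp with 328 and 323 CPM. Fmod was low, with 19.7 CPM from 284 UMIs in wild type and 16.7 CPM from 320 UMIs in knockout. The order of the 7 was the same in both libraries apart from Lum and Bgn, which cannot be ordered in either. Together the 7 genes supplied 2.40% of all UMIs in wild type and 1.99% in knockout cells, and Dcn supplied 78.9% and 69.8% of that sum.

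Beside wild type, knockout FAPs had less Dcn and more Lum and Bgn, and the other members were close to level. Dcn was 1.37-fold lower (log2 ratio of knockout over wild type -0.45, 95% interval -0.46 to -0.44). Lum was 1.34-fold higher (0.42, 0.39 to 0.44), and so was Bgn (0.42, 0.39 to 0.44). Ogn had a log2 ratio of -0.03 (-0.06 to -0.00), Prelp -0.02 (-0.08 to 0.03) and Aspn -0.10 (-0.15 to -0.05), and the sign of all 3 turned when the ratio was taken as the median over shared clusters, described further on. Fmod had -0.24 (-0.47 to -0.00), and its sign turned in 3 of 14 alternatives.

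No member differed by as much as 1.5-fold: 0 of 7 were that much higher and 0 of 7 that much lower. For comparison, of the 5933 genes with a mean of at least 20 CPM, 5.07% were at least 1.5-fold higher in knockout and 3.59% lower, 8.66% in all. Fmod, with a mean of 18.2 CPM, was the member that did not pass this minimum, and 6 of 7 passed. At 2-fold, with 1.77% of these genes higher and 1.01% lower (2.78% in all), the members' counts were again 0 and 0. At the smaller criterion of a 25% difference, which 15.2% of these genes passed upwards and 9.37% downwards (24.6% in all), Lum and Bgn were counted as higher and Dcn as lower. The median log2 ratio was -0.03 over the 7 members and 0.05 over the 5933 genes. The summed level of the 7 was 23987 CPM in wild type and 19862 CPM in knockout (log2 ratio -0.27, -0.28 to -0.27). Without Dcn the sum went the other way, from 5073 to 6007 CPM (0.24, 0.23 to 0.26), so the direction of the sum was set by its most abundant member.

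From cell to cell, Dcn was present throughout and, of the 6 commoner genes, the most evenly spread by percentiles and by the share of the top 10% of cells. Its variance over the mean, given further on, was the largest, and it was also the most abundant. The per-cell level of Dcn in wild type ran from 7104 CPM at the 5th percentile through a median of 17720 CPM to 37204 CPM at the 95th. In knockout the same points were 3881, 12930 and 28103 CPM, so the whole distribution lay lower and the ranges overlapped widely. Lum ran from 40.8 through 998 to 3952 CPM in wild type and from 218 through 1641 to 4622 CPM in knockout. The ranges of Lum overlapped widely, with every printed point higher in knockout. Bgn was absent from the lowest cells of both, with medians of 945 and 1496 CPM and 95th percentiles of 4092 and 4640 CPM. Ogn and Prelp had nearly the same distribution in the libraries, with medians of 1204 and 1145 CPM for Ogn and of 274 and 268 CPM for Prelp. Aspn was the most uneven of the 6 commoner genes: its wild type median was 92.8 CPM and its 95th percentile 1400 CPM, against 191 and 1222 CPM in knockout. In wild type the top 10% of cells held 51.8% of all Aspn UMIs and 20.7% of all Dcn UMIs, and in knockout 44.8% and 21.1%.

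**Figure D1:**
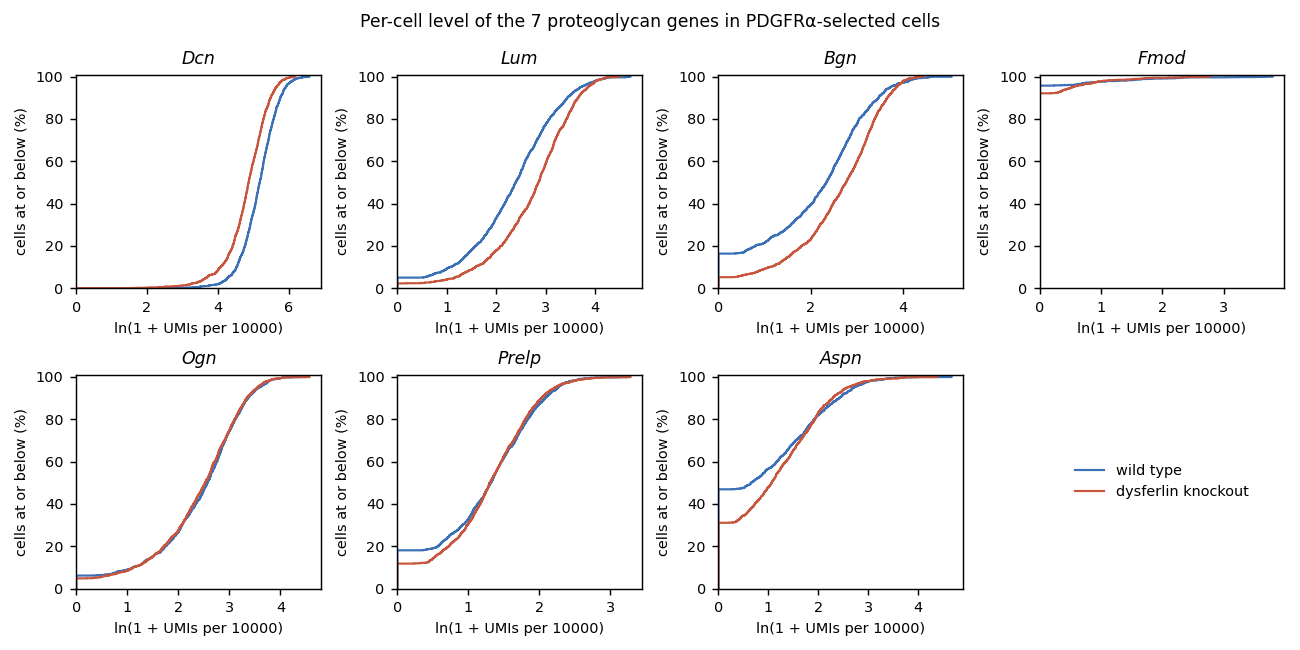
Cumulative share of cells (y axis, percent) at or below each per-cell level (x axis, natural log of 1 plus UMIs per 10000) for each gene in 1533 wild type and 1435 knockout cells, without thinning. The knockout curve lies left of the wild type curve for Dcn, right of it for Lum and Bgn, and close to it over most of the range for Ogn and Prelp; part of the gap at 0 goes with the deeper knockout library.

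To compare detection at equal depth, each cell was thinned at random to 5000 UMIs, which left out 299 wild type and 172 knockout cells. After thinning, Bgn was seen in 79.6% of wild type and 92.6% of knockout cells, and Aspn in 48.8% and 58.1%. Lum was seen in 93.1% and 96.4%, Ogn in 92.7% and 92.1%, Prelp in 73.2% and 73.4%, and Dcn in 100% and 99.9%. Without thinning the shares were 83.6% and 94.8% for Bgn and 53.1% and 68.9% for Aspn. The median thinned cell held UMIs of 5 of the 7 genes in both libraries, and 70.7% of wild type and 81.4% of knockout cells held at least 5. Dcn, Lum, Bgn and Ogn were all present in 68.1% and 82.6% of thinned cells. The variance over the mean of thinned UMIs was lower in knockout for Dcn (24.2 in wild type, 19.4 in knockout), Lum (7.32 and 5.38), Bgn (9.10 and 5.99) and Aspn (6.67 and 4.66), level for Prelp (1.60 and 1.61), and higher for Ogn (4.23 and 4.51). The mean of thinned Dcn UMIs was also lower in knockout, at 99.2 and 72.0, while the ratio of its 95th to its 5th percentile was wider, at 5.24 and 7.24.

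Free RNA in droplets can set a floor under these shares. The reference for it was 36 wild type barcodes with no Pdgfra UMI and UMIs of at least 3 endothelial markers, at a median of 3178 UMIs. That these cells express none of the 7 genes is an assumption which was not tested. Dcn was seen in 18 of them at 712 CPM, Bgn in 33.3%, Prelp in 22.2%, Lum and Aspn in 16.7% each and Ogn in 11.1%. Fmod was seen in 0 of 36, which allows a share of up to 8.33%, so its share of FAPs (3.32% and 4.59% after thinning) cannot be set apart from that floor by share alone. Knockout gave only 5 such barcodes, with a median of 3232 UMIs, and all 5 held Prelp, at 627 CPM, above the 323 CPM of knockout FAPs. The endothelial-like barcodes were thus too few to set a floor in knockout.

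The levels also differed between clusters of FAPs. Cells of both libraries were clustered together on variable genes with the 7 members left out, which gave 14 clusters. They stay unnamed, since no cluster had 3 markers of another cell type raised, and are called by number and leading genes. Clusters 1 to 6 held at least 25 cells of each library. Cluster 0 (C1qtnf3, Cpxm1, Mmp3) held 629 knockout cells, 43.8% of that library, and 9 wild type cells, so a cluster of this kind cannot be told apart from the library itself. Cluster 8 (6030408B16Rik, Rasgrp2, Rcsd1) held 81 wild type and 23 knockout cells.

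Of the shared clusters, Dcn was highest in cluster 1 (Nrxn2, Inhbb, Bmp2), with 25181 CPM in wild type and 23579 CPM in knockout, and lowest in cluster 3 (Wnt10b, Chst1, Dact2), with 12431 and 9922 CPM. Cluster 3 was also the lowest of the 6 for Lum (547 and 511 CPM) and for Bgn (334 and 275 CPM), yet it was the highest for Aspn in wild type, at 578 CPM. Among the same 6, Bgn was highest in cluster 6 (C7, Hhip, Gdf10), at 3023 and 2808 CPM, where Prelp was lowest, at 152 and 245 CPM. Ogn was highest of the 6 in cluster 2 (Dkk2, Sfrp2, Igfbp3), at 2170 and 2504 CPM. Over the 6 shared clusters Bgn spanned 9.05-fold in wild type and 10.2-fold in knockout, against 2.03-fold and 2.38-fold for Dcn. Cluster 1, the highest of the 6 for Dcn, was also the highest for Lum (1724 and 1911 CPM) and Prelp (423 and 491 CPM). The order of clusters thus differed between genes, while Dcn, Lum and Prelp shared their highest cluster and Dcn, Lum and Bgn their lowest. The place of the highest and lowest cluster was the same in both libraries for Dcn, Lum, Bgn and Prelp.

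Among clusters with at least 25 cells of a library, the highest Lum and Bgn and the lowest Dcn lay outside the shared clusters. Cluster 8 was outside them only because its 23 knockout cells fell under the minimum of 25. Shared clusters 1 (361 wild type and 80 knockout cells) and 3 (261 and 48) also held mostly wild type cells. The highest Dcn, Ogn and Prelp lay in shared clusters. Wild type cells of cluster 8 had the highest Lum and Bgn of any cluster with at least 25 cells, at 4061 and 4042 CPM, and the highest Aspn of wild type, at 811 CPM. The 23 knockout cells of cluster 8 had 3723 CPM of Lum and 3284 CPM of Bgn. Knockout cells of cluster 0 had the highest Lum of the knockout clusters with at least 25 cells, at 2664 CPM, with 2469 CPM of Bgn. This cluster held 47.4% of the UMIs of all knockout cells but 63.8% of their Lum UMIs and 59.0% of their Bgn UMIs, and 51.5% of their Dcn UMIs. Knockout cells of cluster 12, led by the mitotic genes Pbk and Bub1, had the least Dcn of the clusters with at least 25 cells, at 5393 CPM, beside 2544 CPM of Bgn. Knockout clusters 7 (Cmah, Aldh1a3) and 9 (Ccl2, Cxcl9) also had low Dcn, at 9423 and 8872 CPM.

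**Figure D2:**
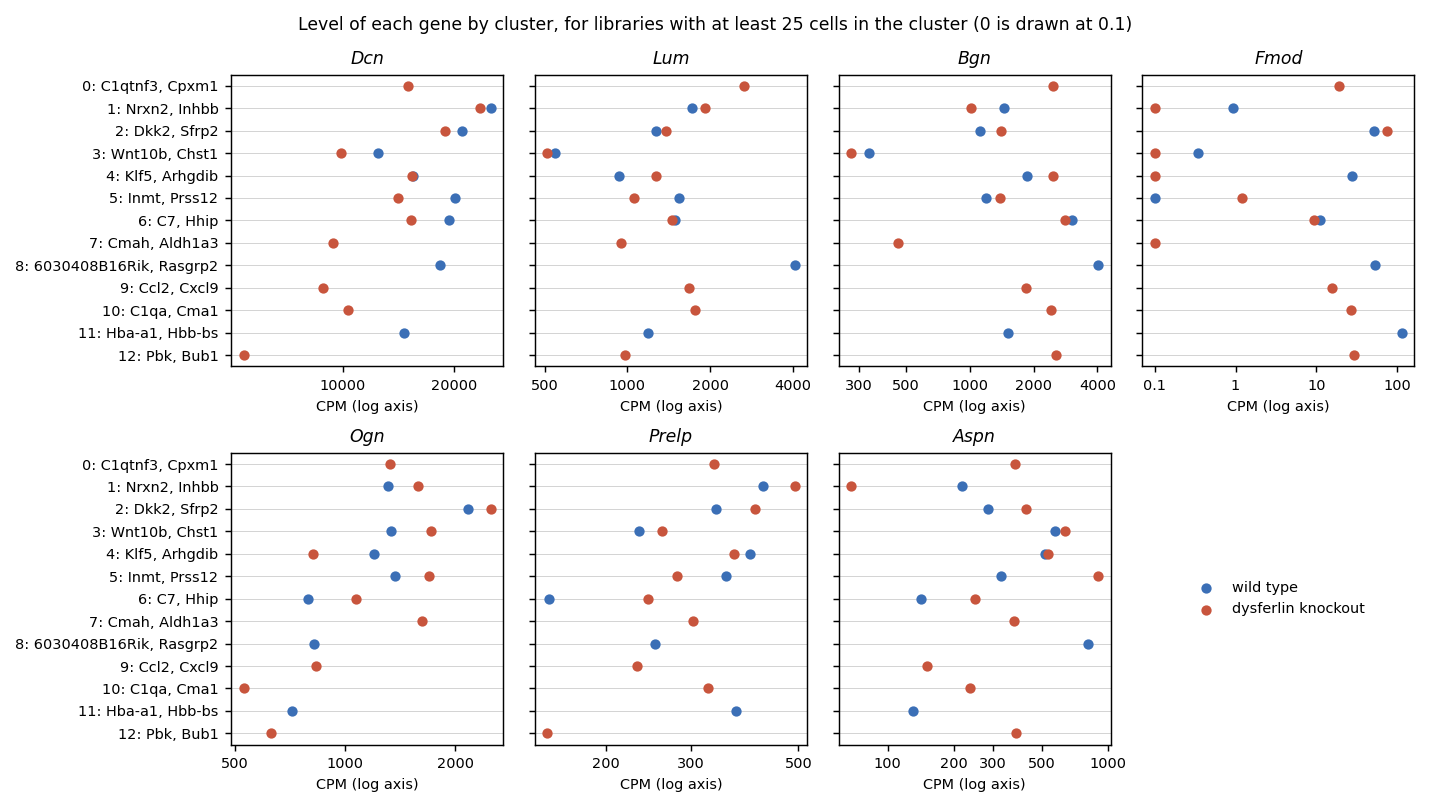
Level of each gene (x axis, CPM on a log axis, a value of 0 drawn at 0.1) in each cluster (y axis, number and 2 leading genes) for wild type and knockout, shown where a library has at least 25 cells in the cluster. Bgn is lowest in cluster 3 in both libraries (334 and 275 CPM), and the Lum and Bgn points of cluster 8 in wild type (4061 and 4042 CPM) lie to the right of all others.

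Within clusters, knockout beside wild type looked different from the whole selection for Lum and Bgn. Dcn was lower in knockout in all 6 shared clusters, with log2 ratios of -0.51 to -0.01, a median of -0.24 and 5 intervals wholly below 0. At resolution 0.4, 4 of 5 were lower, and the cluster with 799 knockout cells had 0.04 (0.02 to 0.06). The Lum ratios ran from -0.55 in cluster 5 (Inmt, Prss12, Prex2) to 0.45 in cluster 4 (Klf5, Arhgdib, Cpe), with 3 above 0 and 3 below and a median of 0.04. Bgn ran from -0.51 in cluster 1 to 0.41 in cluster 4, again with 3 on each side and a median of 0.06. The higher Lum and Bgn of the whole knockout selection was thus not seen as a common direction over the shared clusters. Ogn, level in the whole selection, was higher in 5 of the 6 (median 0.29) and lower in cluster 4 (-0.55, -0.67 to -0.43), where its levels were 1197 and 818 CPM. Prelp was higher in 4 of 6 (median 0.18), with the largest ratio in cluster 6 (0.68, 0.29 to 1.08).

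Aspn had the widest range. In cluster 5 it stood at 328 CPM in wild type and 906 CPM in knockout (log2 ratio 1.47, 1.31 to 1.63), and after thinning it was seen in 38.8% of wild type cells (31.0% to 47.0%) and 67.6% of knockout cells (55.2% to 78.5%). In cluster 1 it stood at 218 and 68.0 CPM (-1.68, -2.13 to -1.26), and was seen in 27.6% (22.7% to 33.0%) and 19.4% (10.4% to 31.4%). These intervals are over cells of 1 library per group, so whether they overlap cannot serve to compare the groups. The knockout level in cluster 1 was near the 72.7 CPM of Aspn in the endothelial-like wild type barcodes. Aspn was also higher in knockout in cluster 6 (0.82, 0.42 to 1.22). Neither value was seen with coarser clustering, at a Leiden resolution of 0.4 with 5 shared clusters. That clustering merged much of clusters 1 and 5, so it could not check either value alone. Coarse cluster 1 took in 90.0% of the knockout cells of cluster 1 and 49.5% of those of cluster 5, and there Aspn had a log2 ratio of 0.28 (0.09 to 0.48). The lowest coarse value, -1.64 (-1.73 to -1.55), came from another cluster (Cxcl9, C1qtnf3, Timp1) with 72 wild type and 799 knockout cells, and none was 1.5-fold higher. Fmod had 46 UMIs in wild type and 0 in knockout cells of cluster 4, with an upper limit of -2.77 for the log2 ratio, and 32 of the 46 UMIs came from 2 cells. In cluster 2 it had 115 and 79 UMIs (0.50, 0.07 to 0.93), and in each of the other 4 shared clusters at most 7 UMIs in a library.

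**Figure D3:**
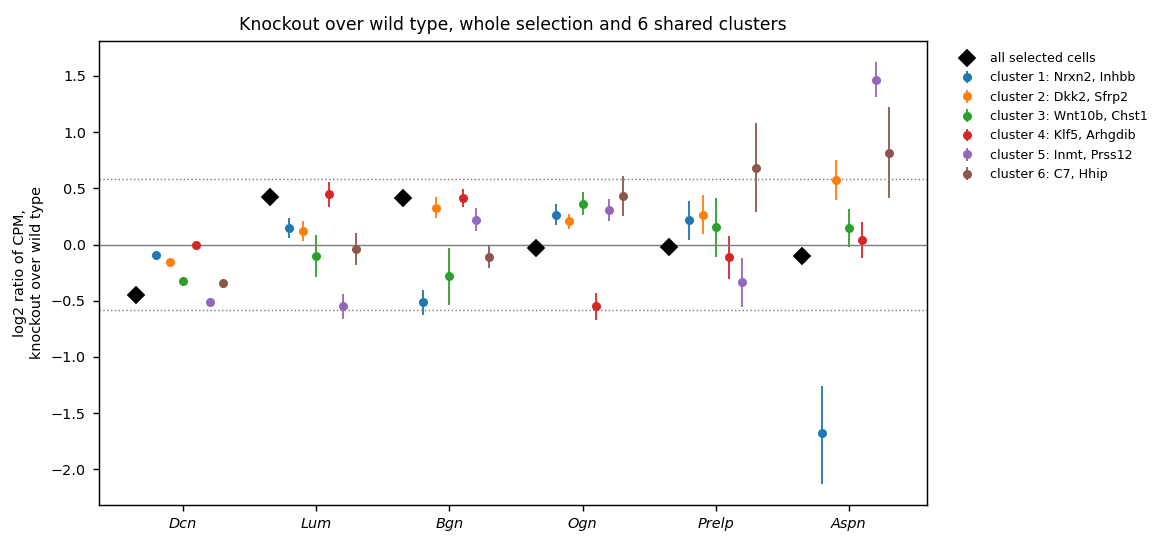
Log2 ratio of CPM, knockout over wild type (y axis), for the whole selection (black diamonds) and for each of the 6 shared clusters (coloured points), with 95% counting intervals; dotted lines mark 1.5-fold. All Dcn points lie at or below 0, the Lum and Bgn cluster points lie on both sides of 0 beside diamonds at 0.42, and Aspn spans -1.68 to 1.47.

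Decorin and lumican were the pair that varied together most in these cells. Pearson r over thinned cells is given here as a description, since the cells of a library share depth, free RNA and clusters. Dcn and Lum, neighbours on chromosome 10, had r = 0.35 over 1234 wild type cells and r = 0.47 over 1263 knockout cells, and 0.20 and 0.43 after each cluster's mean was subtracted. Lum and Bgn had 0.30 and 0.34, and 0.12 in both libraries within clusters. Dcn and Prelp had 0.21 and 0.26, and Dcn and Ogn 0.13 and 0.25. Aspn stood apart: with Dcn it had -0.35 in wild type and -0.04 in knockout (-0.22 and -0.04 within clusters), while with Bgn, also of class I, it had 0.15 in both, and 0.29 and 0.25 within clusters. Aspn and its neighbour Ogn had 0.01 and 0.06. Of the 21 pairs, 19 had the same sign in both libraries, 16 were above 0 in each, and the median r was 0.07 in each. After the cluster means were subtracted, 13 had the same sign, 13 were above 0 in wild type and 15 in knockout, and the medians were both 0.05.

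**Figure D4:**
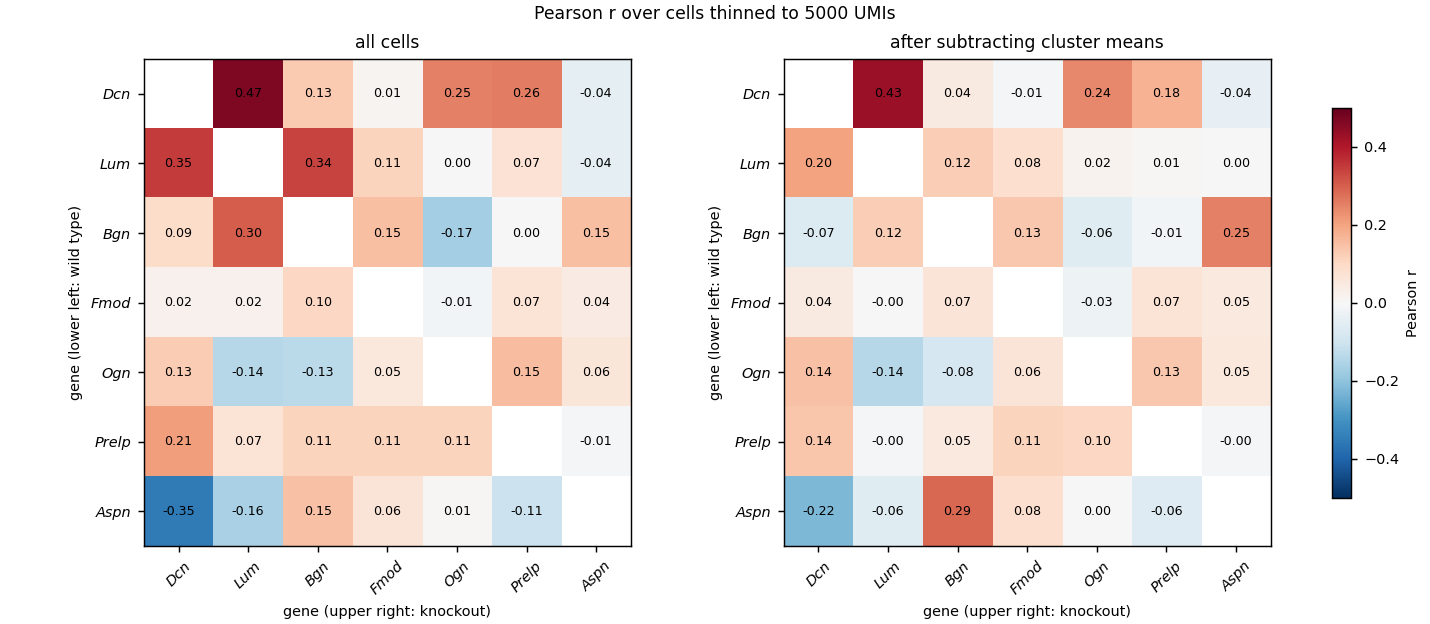
Pearson r for each pair of genes over cells thinned to 5000 UMIs (colour, from -0.5 in blue to 0.5 in red, with the value printed), over all cells at left and after subtracting cluster means at right; wild type is below the diagonal and knockout above. Dcn with Lum is the strongest pair of the left panel in both libraries (0.35 and 0.47), and Bgn with Aspn is the strongest of wild type in the right panel (0.29).

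For most members the genes of most like pattern lay outside the family. Among 5274 genes, those most like Bgn were Mgp (r = 0.62 in wild type, 0.59 in knockout), a matrix inhibitor of calcification, Cilp (0.58 and 0.61) and Igfbp7 (0.50 and 0.49). Dcn went with Smoc2 (0.49 and 0.43), a matricellular calcium-binding protein, Crispld2 (0.44 and 0.36) and Lum. Lum went with Igfbp7 (0.39 and 0.45), Smoc2 (0.39 and 0.43) and the chemokine Cxcl14 (0.44 and 0.38). Prelp had Smoc2 (0.30 and 0.29), Crispld2 (0.22 and 0.23) and Dcn as its nearest genes. Aspn went with Mfap5 (0.26 and 0.28), a microfibril protein, Csrp2 (0.29 and 0.25) and the fibril-associated collagen Col14a1 (0.29 and 0.25). Ogn went with Gpx3 (0.32 and 0.29), Marcks (0.27 and 0.27) and Plpp3 (0.26 and 0.28). Fmod had only weak ones, with Lox (0.25 and 0.15), which cross-links collagen, and Mfap4 (0.19 and 0.17) and Cst3 (0.19 and 0.15). Smoc2 was among the 3 nearest genes of Dcn, Lum and Prelp.

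Fibromodulin came from few cells. In wild type 65 cells held its 284 UMIs, and 8 of them, with at least 10 UMIs each, held 54.2%; the highest, in cluster 8, held 56. In knockout 113 cells held 320 UMIs, and 8 held 37.8%. Of 10 tenocyte markers, 8 were seen more often in cells with an Fmod UMI than in other cells in wild type and 2 less often. In knockout 6 were seen more often, 3 less often and Chad in no cell. The same share over all genes is not given, so these counts have nothing to be set against. Tnmd, a tendon membrane protein, was seen in 21.5% of cells with an Fmod UMI against 2.52% of other cells in wild type, and in 15.9% against 5.45% in knockout. Thbs4 was seen in 66.2% against 28.4% and in 86.7% against 51.6%. Each of the other markers was seen in few cells with an Fmod UMI, at most 7.69% in wild type and 2.65% in knockout. The median depth was 9786 against 9145.5 UMIs in wild type and 17117 against 12328 in knockout, so in knockout depth moved with these shares, and its part was not tested. Without cells that held UMIs of 2 or more tenocyte markers, the log2 ratio of Fmod was 0.70 in place of -0.24. Clusters led by genes of blood, endothelial and immune cells also held Fmod. Cluster 11 was led by Hba-a1, Hbb-bs, Gpihbp1, Fabp4 and the endothelial marker Egfl7. There Fmod was found in 23 of 38 wild type cells, with 43 UMIs. The 114 CPM of Fmod in these cells was the highest of any cluster with at least 25 cells. In cluster 10 (C1qa, Cma1, Igha) 15 of 42 knockout cells held Fmod, with 20 UMIs.

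Other leucine-rich relatives were scarcer than every member but Fmod. Podn and Ecm2 in both libraries, and Omd in wild type, stood above Fmod (19.7 CPM in wild type and 16.7 CPM in knockout). Of 12 listed symbols 11 were found, and 3 had a mean of at least 20 CPM. Podn, the collagen-binding podocan, was higher in knockout, at 183 and 290 CPM (log2 ratio 0.67, 0.60 to 0.74), with a median of 0.56 over shared clusters. Omd (osteomodulin) was lower, at 30.4 and 14.7 CPM (-1.05, -1.27 to -0.83), with a median of -0.11 over shared clusters, and Ecm2 was level at 157 and 154 CPM. Tsku had 17.4 and 18.6 CPM. Epyc had 46 and 22 UMIs (-1.47, -2.28 to -0.71), and Kera, a tenocyte and cornea gene, had 2 and 31 UMIs (3.54, 1.57 to 6.65). Chad had 11 UMIs in wild type and 0 in knockout, with an upper limit of -1.74 for the log2 ratio. Optc had 9 and 8 UMIs, Podnl1 5 and 2, Nyx 1 and 2, and Nepn 1 and 1, all at or near the floor.

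Enzymes that build and sulfate the chains passed 1.5-fold about as often as the 8.66% of all 5933 genes. Of 22 genes for the glycosaminoglycan linker and chondroitin or dermatan sulfate, 11 reached a mean of 20 CPM, 1 was higher and 0 were lower, a share close to that of all genes, with a median log2 ratio of 0.09. The higher gene was Csgalnact1, which starts chondroitin chains, at 23.5 and 51.0 CPM (1.12, 0.94 to 1.30), and it was higher in all 6 shared clusters (median 0.78). Fam20b (0.46), Chpf2 (0.41) and Chst12 (-0.34) were next in size. Of 13 genes for keratan sulfate and sulfate supply, 6 reached that level and none passed 1.5-fold either way (median -0.01). Ugdh, which makes the UDP-glucuronate used for the chains, had -0.36 (median over shared clusters 0.51), Slc35b2 0.30, Papss1 -0.29 and Slc26a2 0.28. Of 20 other proteoglycan core proteins, 11 reached it, 0 were higher and 2 lower (median -0.12): Spock2 (-1.10) and the glypican Gpc3 (-0.79), with medians over shared clusters of -0.62 and -0.16. Versican (Vcan, 0.53) and lubricin (Prg4, 0.48) were higher by less than 1.5-fold.

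Several collagens that the members bind were higher in the whole knockout selection. Of 22 listed symbols of matrix partners 21 were found (Ccn5 was not), and 20 reached the minimum. Of these, 6 were at least 1.5-fold higher and 1 lower (Wisp2, -0.59), with a median of 0.30. For this and the next lists, the shares over all 5933 genes at that minimum were 5.07% higher and 3.59% lower. Col3a1 stood at 4357 and 10961 CPM (1.33, 1.32 to 1.34), Col1a1 at 2274 and 4498 CPM (0.98, 0.97 to 1.00), Col1a2 at 2892 and 5702 CPM (0.98, 0.96 to 1.00) and Fn1 at 1065 and 2036 CPM (0.94, 0.91 to 0.96). Over the 6 shared clusters the median was smaller for the collagens, at 0.59 for Col3a1, 0.46 for Col1a2 and 0.32 for Col1a1, and 1.07 for Fn1. By that median 2 of the 20 passed 1.5-fold upwards, a count for which the share of all genes is not given. In knockout cells of cluster 0, Col1a1 stood at 6095 CPM. Of 14 proteases known to cut members or to help in that, 8 reached the minimum, 4 were higher and 0 lower (median 0.52). They were Mmp3 (62.5 and 376 CPM, 2.59), which is also a leading gene of cluster 0, Mmp14 (0.96), Mmp2 (0.84) and Adamts4 (0.62). The median over shared clusters was -0.31 for Mmp3, with 2 clusters above 0 and 4 below, and 0.73 for Mmp14, 0.59 for Mmp2 and 0.75 for Adamts4. Of 11 receptors 6 reached it, with Cd44 higher (0.79, 0.67 to 0.91) and Tlr4, a receptor for free biglycan, lower (-0.68, -0.88 to -0.48); their medians over shared clusters were 0.39 and -0.39. Egfr, which decorin binds, had -0.32 and Itgb1 0.26, and the median was -0.11.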

How the data were processed

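Libraries were made from sorted PDGFRα-positive cells with 10x Chromium 3′ reagents (v3) according to the labels' protocols, and doublets were gated out by pulse width in the sort. The deposited values are unnormalized UMI counts. Cell Ranger 3.0.0, Seurat and mm10 are named in the submitters' processing notes, and the matrix headers name software version 3.0.2. The way in which cells were called from barcodes was not given in the sources used here.

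Counts were summed per gene over the selected cells and divided by the library total to give CPM. Log2 ratios have exact conditional binomial 95% intervals and shares exact Clopper-Pearson ones; the calculation was tested on simulated data. A count of 0 was taken to allow 3 counts, 0.208 CPM in wild type and 0.156 CPM in knockout. Clusters came from scanpy 1.11.5 (10000 per cell, log1p, 1996 variable genes without members, 30 components, 15 neighbours, Leiden resolution 0.8, no integration). No doublet caller was run. Per related list, up to 4 genes with the largest ratio at a mean of at least 20 CPM are named, with every relative that had a UMI, and for each member its 3 nearest genes by the lower r of both libraries. A few further genes were chosen after their values were seen. The 7 genes and all lists were chosen with earlier results of these data known. Alternatives changed the cells kept, depth, scaling, clustering and size criterion.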

Additional observations from a re-analysis of the deposited data

How the results depend on the processing

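Over 15 alternatives the summed level of the 7 genes stayed lower in knockout. Its log2 ratio, -0.27 as reported, was -0.25 with no Pdgfra UMI required, -0.24 with at most 5% mitochondrial UMIs, -0.29 after thinning to 5000 UMIs, -0.33 with median-of-ratios scaling, -0.15 as the median over shared clusters and -0.26 without cells holding 2 tenocyte markers. It was -0.24 without the 5% of cells with most UMIs, -0.12 in cells of shared clusters only and -0.26 without the clusters led by haemoglobin genes or C1qa; these 3 choices, and leaving out the shared barcodes, were made after seeing the data. The count of members at least 1.5-fold higher was 1 (Fmod) with at least 2 Pdgfra UMIs and 1 (Fmod) without cells holding 2 tenocyte markers. The share of all genes past 1.5-fold is not given for these selections. In the main selection Fmod was below the minimum of 20 CPM used for that share. At a criterion of a 25% difference, 2 were higher and 1 lower. Dcn ranged from -0.50 to -0.21, Lum from 0.04 to 0.57 and Bgn from 0.06 to 0.58 over the 15, with 1 sign each. The sign of Ogn and Prelp matched the reported one in 11 of 15, that of Aspn in 8 of 15 and that of Fmod in 11 of 14. The share of genes past 1.5-fold, 8.66%, was 26.8% with no minimum beyond 1 UMI in each library and 10.5% at a mean of at least 100 CPM. As medians over shared clusters, an alternative added after seeing the data, the counts at least 1.5-fold higher and lower were 0 and 0 for the relatives, 1 (Prg4) and 1 (Spock2) for other core proteins, 2 and 1 for matrix partners, and 0 and 0 for receptors, against 1 and 1, 0 and 2, 6 and 1, and 1 and 1 as reported. The cause of these shifts was not tested, and the share of all genes past 1.5-fold by such medians is not given. No paired analysis was possible because each group is 1 pooled matrix whose cells carry no sample number. Depth limits Fmod and the scarce relatives most.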

Other observations

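Family members that are neighbours on a chromosome had these log2 ratios of knockout over wild type. On chromosome 10, in the order Dcn, Lum, Kera, Epyc, they were -0.45, 0.42, 3.54 and -1.47, the last pair from under 50 UMIs per library. On chromosome 13, in the order Ecm2, Aspn, Omd, Ogn, they were -0.03, -0.10, -1.05 and -0.03. On chromosome 1, in the order Optc, Prelp, Fmod, they were -0.58, -0.02 and -0.24, with only 9 and 8 UMIs for Optc. Signs were mixed on chromosome 10 and alike in the other rows, where the sign of Aspn, Ogn, Prelp and Fmod turned under some alternatives. The sign of Ecm2 also turned, to a median of 0.11 over shared clusters. Omd, 14.896 kb from Aspn and 15.223 kb from Ogn, was seen in 12.2% of wild type and 7.28% of knockout cells after thinning, and its median over shared clusters was -0.11.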
